A study of Mus musculus with 12 samples.

Results

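The B-lineage stage genes are a set of 38 genes whose products mark or drive the steps of B lymphocyte development, and all 38 were found by symbol among the 47593 genes measured in 12 MADM-mutant mammary tumors. The members were chosen with results of these tumors already known, and the question asked of them is which stage of B development they mark in tumor 2 and in tumor 9, and at what level they lie in the other 10 tumors. The tumors came from 9 mice of one condition: tumors 3 and 4 shared a mouse, tumors 10, 11 and 12 shared another, and each of the other 7 mice gave 1 tumor. All mice carried the MADM RG;GR alleles on a mixed background and none was treated. MADM (mosaic analysis with double markers) uses Cre-driven exchange between homologous chromosomes to make rare GFP-labeled cells that lack Brca1 and p53 among heterozygous cells, and here the Cre was driven by the MMTV promoter to reach mammary epithelial cells. The labels give no age for the animals, no batch and no normal gland, and each sample was poly(A) RNA from a homogenized piece of tumor, so it holds tumor cells together with any other cells in that piece.

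B cells arise from bone marrow progenitors in ordered steps. A pro-B cell commits to the lineage through the transcription factors E2A, EBF1 and PAX5 and rearranges its heavy chain genes. A pre-B cell pairs the new heavy chain with a surrogate light chain, made by Igll1 and Vpreb genes, to form the pre-B cell receptor. Light chain rearrangement then gives a surface immunoglobulin, and mature B cells gain receptors for complement, IgE, follicular chemokines and survival factors before some become germinal center or plasma cells. In a normal mammary gland B-lineage cells are a minor population, and plasma cells are best known there from lactation.

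Values are TPM (a share of all transcripts), in which the reads of a gene are divided by its length and every tumor is scaled to the same total, so levels can be compared between genes within a tumor. TPM keeps no read number. The depth of each tumor is therefore unknown, no counting error can be given, and a low value cannot be told from a handful of reads. In RNA of whole tissue, fewer cells of a type and less RNA per cell cannot be told apart.

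Several tumors stand apart from their label. In tumor 2 all 7 epithelial markers (Epcam, Cdh1, Krt8, Krt18, Cldn3, Cldn4 and Cldn7) were under 1 TPM, with Epcam listed at 0 and a sum of 1.87 TPM, while tumor 8 had a sum of 156 TPM and the highest sum was 8152 TPM. The defining markers of a mammary carcinoma were thus absent from tumor 2 and low in tumor 8. The 7 macrophage markers summed to 77.3 TPM in tumor 2 and to between 382 and 879 TPM elsewhere outside tumor 9, and Cd3e, the T cell receptor chain, was listed at 0 in tumor 2. Tumor 9 held epithelial (3243 TPM), macrophage (538 TPM) and T cell (193 TPM) marker sums within the ranges of the 10 tumors other than 2 and 9. The low end of the epithelial range was tumor 8. Tumor 9 ranked 10 of the 12 tumors in Cdh1, Krt8, Krt18, Cldn3 and Cldn7, but 2 in Epcam and 3 in Cldn4. The T cell sum includes Thy1, which is not confined to T cells, and by the median of the 8 T cell markers tumor 9 (14.6 TPM) lay above those tumors (at most 7.80 TPM).

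**Figure D1:**
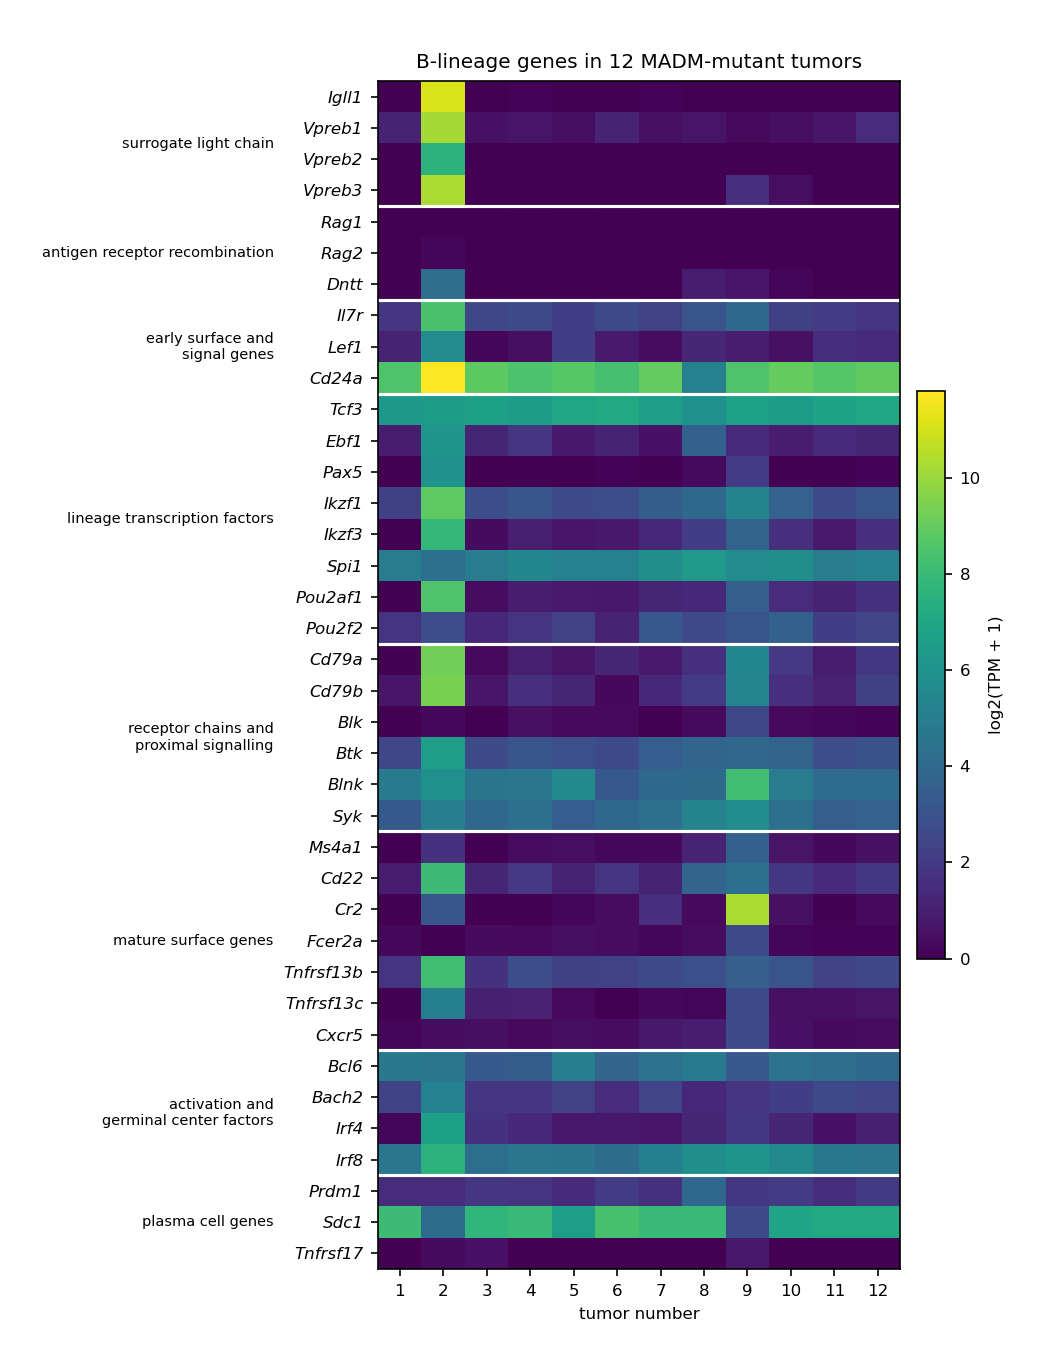
Heat map of log2(TPM + 1) for the 38 members (rows, in 8 role groups) in tumors 1 to 12 (columns). Tumor 2 is bright in the surrogate light chain rows and in most rows down to Irf8, tumor 9 is bright in Cr2 and Blnk, and the other 10 tumors are dark apart from members such as Cd24a, Tcf3, Spi1 and Sdc1.

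Across the members, 23 were highest in tumor 2, 9 were highest in tumor 9 and 6 (Tcf3, Spi1, Pou2f2, Bcl6, Prdm1 and Sdc1) were highest elsewhere. For 14 members tumor 9 ranked next behind tumor 2. These ranks were not counted over all genes, so the numbers cannot be set against the genes as a whole. A member was called high in a tumor where its TPM + 1 was at least 4-fold above that of the highest of the other 11 tumors, and low where it was at least 4-fold below that of the lowest, among the 35 members that reached 1 TPM in at least 1 tumor. The 3 members that did not reach it were Rag1, Rag2 and Tnfrsf17. In tumor 2, 21 of the 35 were called high, where 1.57% of 20659 genes were, and 0 were called low, where 2.98% of genes were. In tumor 9, 4 were called high (Blk, Blnk, Cr2 and Fcer2a), where 2.03% of genes were, and 0 were called low, where 0.218% of genes were. Since the members were chosen from these same tumors, the counts describe them and test nothing. The member nearest inside the limit in tumor 2 was Tnfrsf13c, at 5.55-fold, and the nearest outside was Irf8, at 2.75-fold. In tumor 9 the limit fell between Blk, at 4.01-fold, and Ms4a1, at 4.00-fold, which lay just under it because tumor 2 held 2.18 TPM of Ms4a1. Set against the 10 tumors other than tumor 2 alone, tumor 9 had 7 members high (Cd79a, Cd79b and Ms4a1 in addition), where 2.2% of genes were, and 1 low (Sdc1), where 0.915% of genes were. This comparison was chosen after seeing the data.

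The remaining tumors showed few such calls. Tumor 8 had 0 members high, where 0.605% of genes were, and 1 low (Cd24a), where 0.0871% of genes were. In tumors 1, 3, 4, 5, 6, 7, 10, 11 and 12 there was no member called either way, where 0.349% of genes were high and 0.0532% low in any of these 9 tumors. Relative to the median of the other 10 tumors, the median ratio of TPM + 1 over all members was 10.6 in tumor 2 and 2.09 in tumor 9, and over all 20659 genes it was 0.930 and 0.922.

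The surrogate light chain genes gave the sharpest contrast. Igll1 (ENSMUSG00000075370, chromosome 16 from 16860671 to 16863985, minus strand, GRCm38), which encodes lambda 5, was at 2261 TPM in tumor 2 and at 0 in tumor 9. In the other 10 tumors it was at 0 except for 0.0917 TPM in tumor 4 and 0.0732 TPM in tumor 7. Vpreb1 (ENSMUSG00000059305, chromosome 16 from 16868403 to 16870843, minus strand), which encodes the variable-like partner of lambda 5, was at 1176 TPM in tumor 2, at 0.218 TPM in tumor 9 and from 0.353 to 1.84 TPM in the others (median 0.580). Vpreb2 (ENSMUSG00000059280, chromosome 16 from 17980428 to 17981273, plus strand), its near copy, was at 188 TPM in tumor 2 and listed at 0 in all of the other 11 tumors. Vpreb3 (ENSMUSG00000000903, chromosome 10 from 75943057 to 75949657, plus strand), whose product assists assembly of the receptor in precursor cells, was at 1265 TPM in tumor 2, 2.12 TPM in tumor 9, 0.368 TPM in tumor 10 and 0 in the other tumors. Tumor 2 did not overlap any other tumor in these 4 genes, and tumor 9 stood above the rest in Vpreb3 alone.

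Promoter stretches of 3 of these genes are shown, for the most abundant of the 4 and for the near copies, whose values the reads may not separate. The stretch before the RefSeq start of Igll1 (RefSeq, GRCm38.p6, chr16:16863986-16864235, minus strand) and the stretch that Vpreb1 (chr16:16869256-16869361, minus strand) and Vpreb2 (chr16:17980315-17980420, plus strand) share before their starts read as follows, with the bases that differ between the last 2 in capitals. The shared stretch ends at the RefSeq start in Vpreb1 but 144 bases before it in Vpreb2.
Igll1: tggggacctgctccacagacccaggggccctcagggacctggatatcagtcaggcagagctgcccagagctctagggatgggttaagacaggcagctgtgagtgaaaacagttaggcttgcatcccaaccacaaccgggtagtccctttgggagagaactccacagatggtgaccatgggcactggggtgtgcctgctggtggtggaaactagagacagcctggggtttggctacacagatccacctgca
Vpreb1: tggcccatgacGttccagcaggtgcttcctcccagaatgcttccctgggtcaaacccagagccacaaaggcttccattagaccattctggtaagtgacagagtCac
Vpreb2: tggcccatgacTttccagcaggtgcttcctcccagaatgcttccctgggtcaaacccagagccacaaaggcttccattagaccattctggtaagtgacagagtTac

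The stretch of 106 bases had 104 identical bases in Vpreb1 and Vpreb2 (98.1%). Of it, 89 bases lie in an exon that GENCODE gives to a longer Vpreb1 transcript. Their protein-coding transcripts, of 766 and 759 bases, were 97.4% identical over 759 aligned positions, with a longest identical run of 196 bases. How the study's counting divided reads between the near copies is not stated, so the ratio of 6.24 between Vpreb1 and Vpreb2 in tumor 2 is uncertain. Vpreb1 also has an exon that overlaps one of Top3b, a topoisomerase gene on the opposite strand, which was at 110.5 TPM in tumor 2 and at most 60.5 TPM in the others. The libraries were stranded, but whether strand was used in counting is not stated, so the low Vpreb1 values outside tumor 2 cannot be told from reads of that gene.

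EBF1, a factor of early B cells, is known to bind a palindrome that reads TCCC, any 2 bases, then GGGA on either strand. RefSeq gave promoter windows, from 250 bases before to 50 bases after each start, for 31 of the 38 members. The motif was in a window of 1 of these 31 genes (3.23%) and of 287 of all 27025 genes with a window (1.06%), or in 297 of all 32851 windows (0.904%). The gene was Cd22, in which the motif began 49 bases before the start, and it is shown with 10 bases on either side, motif in capitals (RefSeq, GRCm38.p6, chr7:30879058-30879087, minus strand). GENCODE places these bases inside the Cd22 gene, which it starts farther upstream than RefSeq, but in no exon.
Cd22: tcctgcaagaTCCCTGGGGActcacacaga

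None of the windows of Igll1, Vpreb1, Vpreb2, Vpreb3, Cd79a or Pax5 held these letters. A match is a description of the letters in the window and says nothing of binding in these tumors.

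Of the recombination genes, Rag1 and Rag2, which together cut antigen receptor genes, did not exceed 0.0490 TPM and 0.102 TPM in any tumor. In tumor 2 they were at 0.0179 and 0.102 TPM. Both share exon positions with the gene B230118H07Rik, so even these values are uncertain. Dntt, the polymerase that adds untemplated bases at heavy chain joins in pro-B cells, was at 17.7 TPM in tumor 2, 0.586 TPM in tumor 9, 0.890 TPM in tumor 8, 0.169 TPM in tumor 10 and 0 in the other 8 tumors. The recombination group was thus split in tumor 2, with the base-adding enzyme present and the cutting enzymes near 0.

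The early surface and signal genes were all called high in tumor 2. Il7r, the receptor chain through which interleukin-7 sustains precursor B cells, was at 344 TPM in tumor 2, 14.2 TPM in tumor 9 and from 2.40 to 7.38 TPM in the others (median 3.81). Lef1, a Wnt-responsive factor active in pro-B cells, was at 50.9 TPM in tumor 2, 0.891 TPM in tumor 9 and between 0.144 and 3.36 TPM elsewhere (median 0.994). Cd24a, a surface glycoprotein of precursor B cells and of mammary epithelium, was at 3574 TPM in tumor 2, the highest value of any member in any tumor. It was at 369.9 TPM in tumor 9 and from 321 to 523 TPM in the others, except for 34.7 TPM in tumor 8, which also had low epithelial markers. T cells carry Il7r as well, and the summed T cell markers came to 47.7 TPM in tumor 2 and ran from 44.0 to 246 TPM in the 10 tumors other than 2 and 9. That sum in tumor 2 was mostly Lck (23.9 TPM), Thy1 (14.5 TPM) and Cd4 (7.74 TPM), while 5 of the 8 markers were under 1 TPM and their median, 0.504 TPM, lay below that of the other tumors (at least 0.837 TPM).

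**Figure D2:**
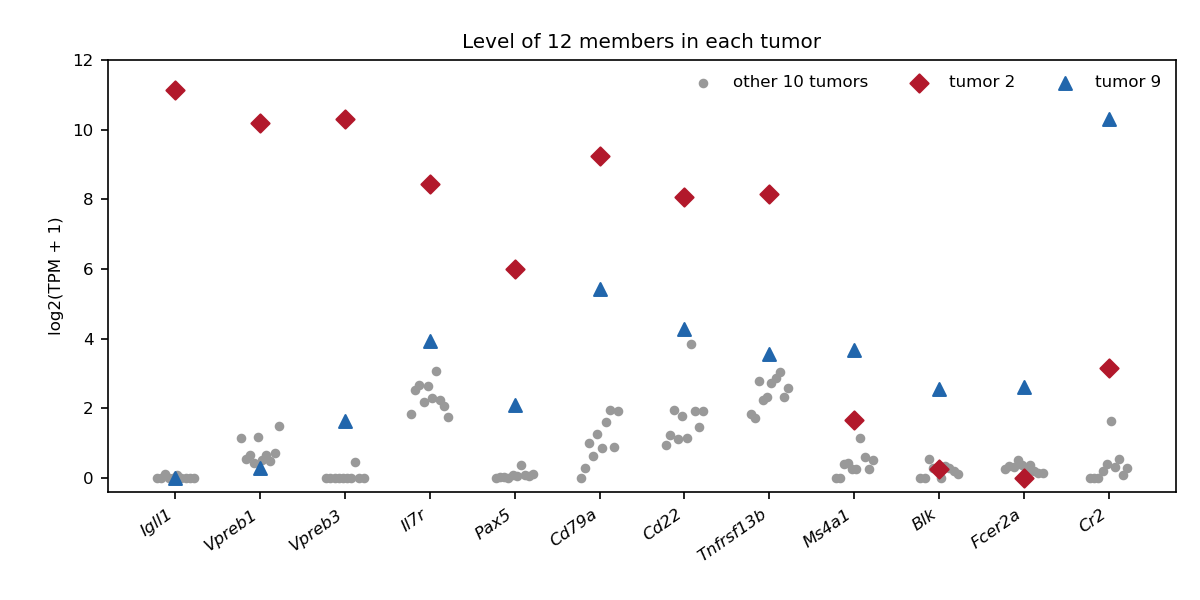
Level of 12 members (x axis) in each tumor, as log2(TPM + 1) on the y axis, with a red diamond for tumor 2, a blue triangle for tumor 9 and grey points for the other 10 tumors. Tumor 2 lies above all others from Igll1 to Tnfrsf13b, and tumor 9 above all others from Ms4a1 to Cr2.

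Among the lineage transcription factors, 5 of 8 were called high in tumor 2. Pax5 (ENSMUSG00000014030, chromosome 4 from 44524757 to 44710487, minus strand), which holds B cells to their lineage, was at 63.0 TPM in tumor 2, 3.27 TPM in tumor 9 and at most 0.291 TPM elsewhere. Ebf1 was at 71.1 TPM in tumor 2, 11.5 TPM in tumor 8, 1.78 TPM in tumor 9 and no more than 2.64 TPM elsewhere. Ebf1 is also known from fat and stromal cells. Tumor 8, the next highest in Ebf1, had only 0.291 TPM of Pax5, so both factors were raised together in tumor 2 but not in tumor 8. Pax5, Lef1 and Bach2 share exon positions with antisense genes.

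The Ikaros family and the octamer co-activator followed the same order. Ikzf1, a zinc finger factor of all lymphocytes, was at 471 TPM in tumor 2, 38.2 TPM in tumor 9 and from 3.66 to 15.1 TPM in the others. Ikzf3, its relative that rises from the pre-B stage on, was at 229.6 TPM in tumor 2, 12.7 TPM in tumor 9 and at most 3.38 TPM in the others. Pou2af1, which encodes the B cell co-activator OCA-B, was at 370.0 TPM in tumor 2, 10.7 TPM in tumor 9 and at most 2.20 TPM in the others. Tumor 9 stood above the 10 remaining tumors in each of these 3 genes and in Pax5, but not in Ebf1.

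The other 3 factors did not mark tumor 2. Tcf3, which encodes E2A and is active in most cell types, was at 100.1 ± 23.5 TPM (SD, n = 9 mice), with 85.6 TPM in tumor 2, 108 TPM in tumor 9 and between 64.4 and 141 TPM elsewhere. Pou2f2, which encodes OCT2, was at 4.82 ± 2.52 TPM (SD, n = 9 mice), with 6.24 TPM in tumor 2, 7.33 TPM in tumor 9 and the highest value, 11.6 TPM, in tumor 10. Spi1, which encodes PU.1, a factor of macrophages that is low in B cells, was at 19.2 TPM in tumor 2, the lowest of the 12, at 51.0 TPM in tumor 9 and between 29.8 and 81.2 TPM elsewhere. Tumors 2 and 9 were inside the range of the others in Tcf3 and Pou2f2, and tumor 2 fell below it in Spi1.

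The chains of the B cell receptor complex separated both tumors from the rest. Cd79a (ENSMUSG00000003379, chromosome 7 from 24897381 to 24902197, plus strand) was at 609 TPM in tumor 2, 41.6 TPM in tumor 9 and from 0 to 2.88 TPM in the others (median 0.931). Cd79b, which encodes the partner chain, was at 675 TPM in tumor 2, 40.3 TPM in tumor 9 and from 0.197 to 3.69 TPM in the others (median 1.42). The ratio of Cd79b to Cd79a, which form a heterodimer, was 1.11 in tumor 2 and 0.969 in tumor 9.

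The kinases and adaptors downstream did not all follow. Btk, the kinase needed for pre-B and B cell signaling, was at 93.9 TPM in tumor 2, 14.0 TPM in tumor 9 and from 4.74 to 13.3 TPM in the others. Blnk, the adaptor that links the receptor to BTK, ran the other way, at 59.2 TPM in tumor 2, 291 TPM in tumor 9 and from 8.61 to 49.0 TPM in the others. Syk, the kinase that starts the cascade, was at 31.7 TPM in tumor 2, 53.8 TPM in tumor 9 and between 9.28 and 37.7 TPM elsewhere, so tumor 2 lay within the range of the others. Blk, a Src-family kinase of B cells, was at 0.206 TPM in tumor 2, 4.84 TPM in tumor 9 and at most 0.456 TPM in the others. Relative to Cd79a, Blnk was at 0.0971 in tumor 2 and 7.00 in tumor 9, with 5.92 to 103 in the 9 other tumors with a Cd79a value, so that tumor 2 lay outside their range and tumor 9 within it.

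The mature surface genes split into those raised in tumor 2 and those raised in tumor 9. Cd22, the inhibitory co-receptor, was at 269.7 TPM in tumor 2, 18.6 TPM in tumor 9, 13.4 TPM in tumor 8 and at most 2.87 TPM elsewhere, and an antisense gene, Gm29439, shares exon positions with it. Tnfrsf13b, which encodes the receptor TACI, was at 285 TPM in tumor 2, 10.9 TPM in tumor 9 and between 2.28 and 7.27 TPM elsewhere. Tnfrsf13c, which encodes the BAFF receptor of maturing B cells, was at 33.6 TPM in tumor 2, 5.24 TPM in tumor 9 and at most 1.11 TPM in the others. These 3 genes were called high in tumor 2, with tumor 9 next in each.

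The other 4 were highest in tumor 9. Cr2 (ENSMUSG00000026616, chromosome 1 from 195136811 to 195176716, minus strand), which encodes the complement receptors CD21 and CD35 of mature B cells and follicular dendritic cells, was at 1267 TPM in tumor 9, 7.89 TPM in tumor 2 and at most 2.1 TPM in the others. Ms4a1, which encodes CD20, was at 11.7 TPM in tumor 9, 2.18 TPM in tumor 2, 1.20 TPM in tumor 8 and at most 0.526 TPM elsewhere. Fcer2a, which encodes the low-affinity IgE receptor CD23, was at 5.17 TPM in tumor 9, 0 in tumor 2 and from 0.0973 to 0.419 TPM in the others. Cxcr5, the chemokine receptor that leads B cells to follicles, was at 5.73 TPM in tumor 9, 0.331 TPM in tumor 2 and from 0.123 to 0.953 TPM in the others, and its exons overlap those of Bcl9l on the opposite strand.

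The ratio to Cd79a separates the 2 tumors again. Ms4a1 over Cd79a was 0.281 in tumor 9 and 0.00357 in tumor 2, and in the 9 other tumors with a Cd79a value it ran from 0 to 0.658 with a median of 0.221. Cr2 over Cd79a was 30.5 in tumor 9, 0.0130 in tumor 2 and at most 2.54 in those 9 tumors. The Cr2 level of tumor 9 thus exceeded that of both receptor chains, while its Ms4a1 level was below them.

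**Figure D3:**
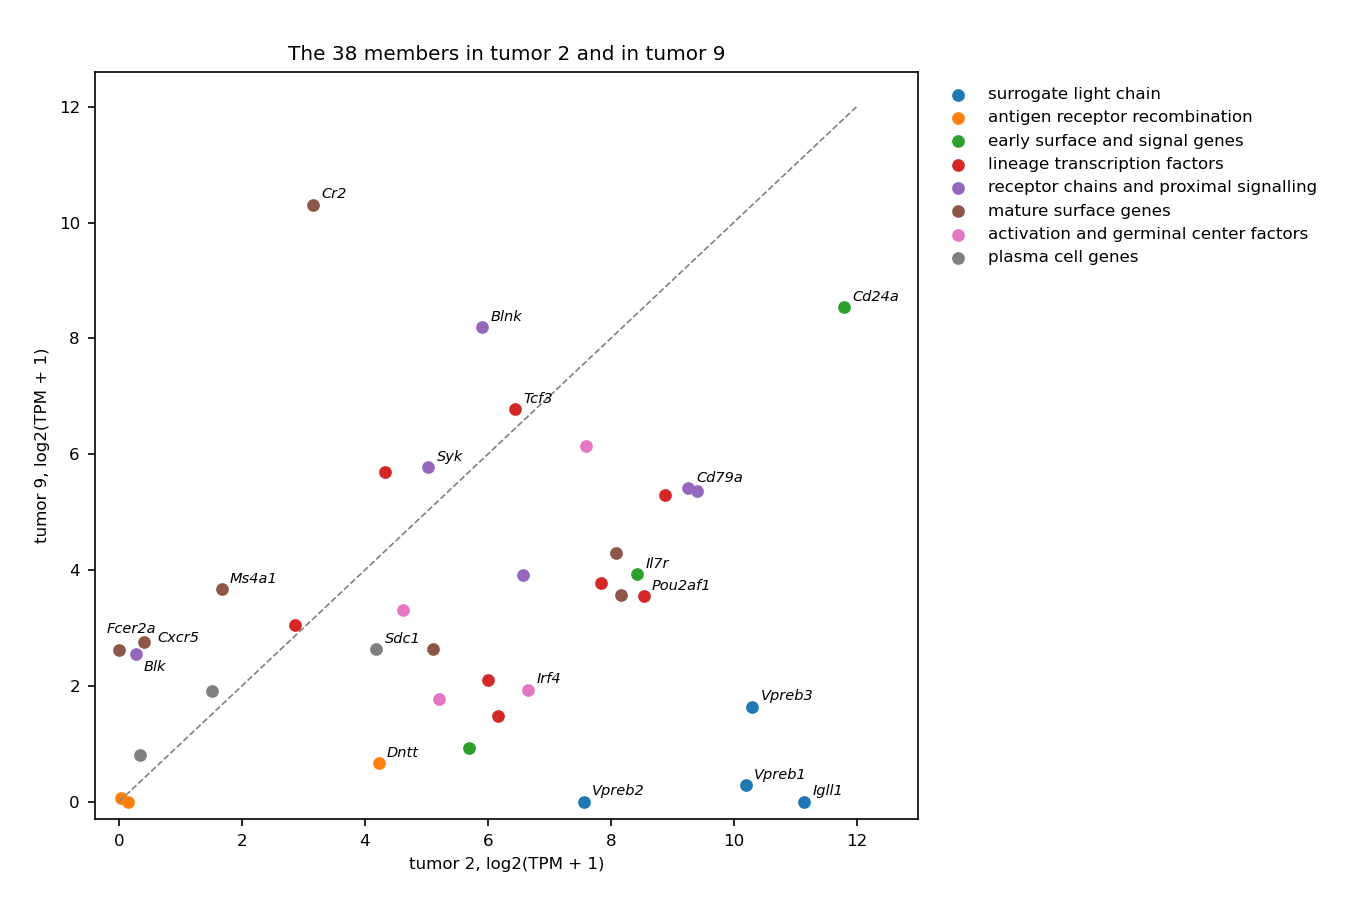
Each of the 38 members by its log2(TPM + 1) in tumor 2 (x axis) and in tumor 9 (y axis), colored by role, with a dashed line where both are equal. The 4 surrogate light chain genes lie at the lower right, and Cr2, Blnk, Ms4a1, Fcer2a, Cxcr5 and Blk lie above the line.

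Of the activation and germinal center factors, 2 of 4 were called high in tumor 2. Irf4, which acts in pre-B cells and again in plasma cells, was at 100.2 TPM in tumor 2, 2.83 TPM in tumor 9 and from 0.123 to 2.35 TPM in the others. Bach2, a repressor that holds back plasma cell genes, was at 35.9 TPM in tumor 2, 2.40 TPM in tumor 9 and from 1.52 to 5.15 TPM in the others. Irf8, shared by B cells and macrophages, was at 193 TPM in tumor 2, 69.6 TPM in tumor 9 and from 17.3 to 58.7 TPM in the others. Bcl6, the germinal center repressor, was at 20.2 ± 8.42 TPM (SD, n = 9 mice), with 23.6 TPM in tumor 2 and with 8.88 TPM in tumor 9 as the lowest of the 12.

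The plasma cell members that could be called, Prdm1 and Sdc1, were not high in either tumor. Prdm1, which encodes the plasma cell factor BLIMP1, was at 1.85 TPM in tumor 2 and 2.75 TPM in tumor 9, within the range of the others, and was highest in tumor 8, at 14.8 TPM. Tnfrsf17, which encodes the plasma cell receptor BCMA, was at 0.271 TPM in tumor 2 and 0.754 TPM in tumor 9, at 0.507 TPM in tumor 3 and 0 in the other 9 tumors. Sdc1, which encodes CD138, a proteoglycan of plasma cells and of epithelium, was at 17.2 TPM in tumor 2, 5.19 TPM in tumor 9 and from 94.6 to 329 TPM in the others (median 229). Both tumors lay below all others in Sdc1, although the epithelial marker sum was near 0 in tumor 2 only.

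Genes outside the set were read from lists of the same pathways, and 10 such lists were examined. Among 6 other pan-B genes, 2 were called high in tumor 2 (Cd37 and Cd72) and 0 in tumor 9. Cd72 was at 1050 TPM, Cd37 at 381 TPM, Ptprc, the pan-leukocyte CD45, at 91.7 TPM and Fcrla at 29.5 TPM in tumor 2, and Cd72 was at 232 TPM in tumor 9. Tumor 2 was not highest in Ptprc (113 TPM in tumor 8), Cd180 (20.1 TPM, with a higher value in tumor 9) or Ralgps2 (24.6 TPM, with 27.6 TPM in tumor 1).

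Of 13 other precursor genes, 2 were high in tumor 2 (Myb and Enpep), 1 was low there (Kit) and 1 was high in tumor 9 (Bst1). In tumor 2 Myb, a factor of proliferating progenitors, was at 246 TPM, Cd93 at 107 TPM, Spn, which encodes CD43, at 97.6 TPM and Enpep, which encodes the pre-B antigen BP-1, at 88.9 TPM. Kit, a receptor of pro-B cells, was at 0.282 TPM and Il2ra, a marker of small pre-B cells, at 0.0535 TPM in tumor 2. Both were lowest of the 12 there, as were Ly6d (1.64 TPM) and Erg (0.822 TPM), and Foxo1 (7.05 TPM) and Sox4 (63.8 TPM) were near the low end. In tumor 5, where Pax5 was at 0, Kit was at 97.1 TPM and Ly6d at 132 TPM. Erg was highest in tumor 8, at 8.07 TPM. What part other cells have in these ranks was not tested. The median ratio of TPM + 1 to the median of the other 10 tumors over the 13 genes was 0.986 in tumor 2. In tumor 9 Ly6d was at 429.6 TPM and Bst1, which encodes BP-3, at 96.6 TPM.

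Among 12 other mature genes, Ighd and Siglecg were called high in tumor 2 and Cd74, H2-Aa and H2-Ab1 were called low there, with none called in tumor 9. Ighd, the delta heavy chain, was at 242 TPM in tumor 2, 51.0 TPM in tumor 9 and at most 1.22 TPM elsewhere. The antigen presentation genes were at 35.1 TPM (Cd74), 34.1 TPM (H2-Aa) and 28.0 TPM (H2-Ab1) in tumor 2 and at 5743, 2561 and 1777 TPM in tumor 9, the lowest and the highest of the 12 in each. Macrophages and other presenting cells carry these genes too.

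Of 8 immunoglobulin constant genes, 1 was called high in tumor 2 (Ighm) and 0 in tumor 9. Ighm, the mu heavy chain, was at 2873 TPM in tumor 2, 222 TPM in tumor 9 and from 11.0 to 251 TPM in the others, so tumor 9 lay inside that range. Igkc, the kappa light chain, was at 137 TPM in tumor 2 and 1996 TPM in tumor 9, with between 2.31 and 1481 TPM in the others. The ratio of Igkc to Ighm was 0.0478 in tumor 2, below all other tumors (0.210 to 19.2), and 9.01 in tumor 9, which did not leave their range. The switched heavy chain Igha was at 751 TPM in tumor 9 and at most 573 TPM elsewhere, and Ighg2b was at 148 TPM in tumor 9 and at most 59.7 TPM elsewhere, both highest in tumor 9. Ighg1 was highest in tumor 10, at 96.9 TPM against 93.6 TPM in tumor 9. In tumor 2 the surrogate light chain was thus more abundant than the kappa chain, with Igll1 at 2261 TPM against 137 TPM.

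Germinal center, plasma and signaling lists gave mixed calls. Of 8 germinal center genes 6 could be called: Gcsam was high in tumor 2 (47.0 TPM) and Fas was low there (0.474 TPM), with 0 called in tumor 9. Of 7 other plasma cell genes, Mzb1 (209 TPM), Slamf7 (132 TPM) and Derl3 (51.6 TPM) were high in tumor 2 and 0 were called in tumor 9. Jchain, which joins IgA and IgM subunits in secreting cells, was nonetheless highest in tumor 9, at 138 TPM against at most 86.7 TPM elsewhere, and Mzb1, at 16.3 TPM there, was second to tumor 2. Other secretory genes were not raised in tumor 9, where Xbp1 (172 TPM) ranked 7 and Creld2 (60.9 TPM) and Fkbp11 (10.01 TPM) ranked 11 of the 12 tumors. In tumor 2 Mzb1, Slamf7 and Derl3 did not follow the plasma cell members Prdm1 and Tnfrsf17, and Mzb1 is also known from other B cell stages. Of 16 other receptor signaling genes, Rasgrp3 was high in tumor 2 (77.9 TPM) and 0 were called in tumor 9, and Cd81 (550.8 TPM in tumor 2, 870.2 TPM in tumor 9) and Ptpn6 (416 TPM in tumor 2, 162 TPM in tumor 9) were the most abundant in tumor 2.

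Of 4 ligands of the member receptors, 2 were called low in tumor 2 (Tnfsf13b and Tnfsf13). Il7, the ligand of Il7r, was at 0.0909 TPM in tumor 2, 42.9 TPM in tumor 9 and from 0.305 to 3.37 TPM in the others. Tnfsf13b, which encodes BAFF, the ligand of Tnfrsf13c and Tnfrsf13b, was at 0.134 TPM and Tnfsf13, which encodes APRIL, at 0.307 TPM in tumor 2. In tumor 9 Tnfsf13b was at 6.81 TPM and Tnfsf13 at 33.4 TPM. Cxcl13, the ligand of Cxcr5, was at 1.56 TPM in tumor 2, 28.9 TPM in tumor 9 and 84.6 TPM in tumor 10. Of 8 interleukin-7 axis genes Il7 alone was called in tumor 9, and of 7 lymphoid tissue genes Ccl19 (12.9 TPM) and Ltb (95.9 TPM) were high there, with 0 of either list called in tumor 2.

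Markers of other cell types moved with both tumors. In tumor 9, T cell marker Cd3e was at 15.0 TPM, and 6 of 8 T cell markers (Cd3e, Cd3d, Cd3g, Cd8a, Cd8b1 and Lck) were highest of the 12 there, although 0 were called high. Of 5 plasmacytoid dendritic cell markers 1 was called high in tumor 9, Siglech at 29.0 TPM, while their sum, 499.8 TPM, was inside the range of the others (447.7 to 1103 TPM). In tumor 2, 4 of 7 macrophage markers (Csf1r, Itgam, Fcgr1 and Cd14), 3 of 7 epithelial markers (Cdh1, Krt8 and Krt18) and 1 plasmacytoid marker (Bst2) were called low. What part these cells have in the levels of the members was not tested.

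In the 10 tumors other than 2 and 9 the members ranged widely, with medians from 0 for Igll1 to 412 TPM for Cd24a. The counts that follow were not made over all genes. Of the 38 members, 15 reached 1 TPM in all of these tumors, 12 in some and 11 in none. The 15 were Il7r, Cd24a, Tcf3, Ikzf1, Spi1, Pou2f2, Btk, Blnk, Syk, Tnfrsf13b, Bcl6, Bach2, Irf8, Prdm1 and Sdc1. The 11 were Igll1, Vpreb2, Vpreb3, Rag1, Rag2, Dntt, Pax5, Blk, Fcer2a, Cxcr5 and Tnfrsf17. Between sister tumors of one mouse the median fold in TPM + 1 over the members was 1.18 between tumors 3 and 4 and between 1.11 and 1.33 among tumors 10, 11 and 12. Over the 41 pairs of tumors from different mice among these 10 it ran from 1.10 to 1.82 (median 1.26), so the sisters lay within the range of unrelated tumors. The largest difference between sisters was 2.79-fold, for Pou2f2 between tumors 10 and 11.

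Spi1, Irf8 and Sdc1 were present in all tumors and are also genes of other cell types. Cd79a is a B cell gene that reached 1 TPM in only 4 of the 10 tumors other than 2 and 9. Each was paired with a marker of another cell type. The 4 pairs were tested over the 7 mice left once those of tumors 2 and 9 were set aside, tumors of one mouse averaged. Spi1 rose with Csf1r, the macrophage growth factor receptor, with Pearson's r = 0.927 (exact two-sided permutation test, p = 0.00893, adjusted over the 4 pairs 0.0179) and Spearman's rho = 0.857 (exact permutation p = 0.0238, adjusted 0.0455). Irf8 rose with Csf1r as well, with r = 0.925 (exact permutation p = 0.00754, adjusted 0.0179) and rho = 0.821 (exact permutation p = 0.0341, adjusted 0.0455). The mice of tumors 5 and 8 were the farthest from the median of Csf1r. Without both, over 5 mice, neither relation passed 0.05: r was 0.792 for Spi1 (exact permutation p = 0.108) and 0.844 for Irf8 (exact permutation p = 0.0750), and rho was 0.9 for each (exact permutation p = 0.0833). Without the mouse of tumor 5 alone both calls were kept, and without that of tumor 7 or of tumor 8 alone both were lost.

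The other pairs did not pass on Pearson's r. Cd79a and Cd3e had r = 0.738 (exact permutation p = 0.0571, adjusted 0.0762) and rho = 0.857 (exact permutation p = 0.0238, adjusted 0.0455). Without the mice of tumors 5 and 8, r was 0.740 (exact permutation p = 0.142) and rho was 0.7 (exact permutation p = 0.233), so rho no longer passed 0.05. With a pseudocount of 0.1 over the 7 mice, r was 0.518 (exact permutation p = 0.232). Sdc1 and Epcam had r = -0.18 (exact permutation p = 0.732, adjusted 0.732) and rho = 0.286 (exact permutation p = 0.556, adjusted 0.556), and r was 0.350 without the mice of tumors 7 and 8 (exact permutation p = 0.558).

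**Figure D4:**
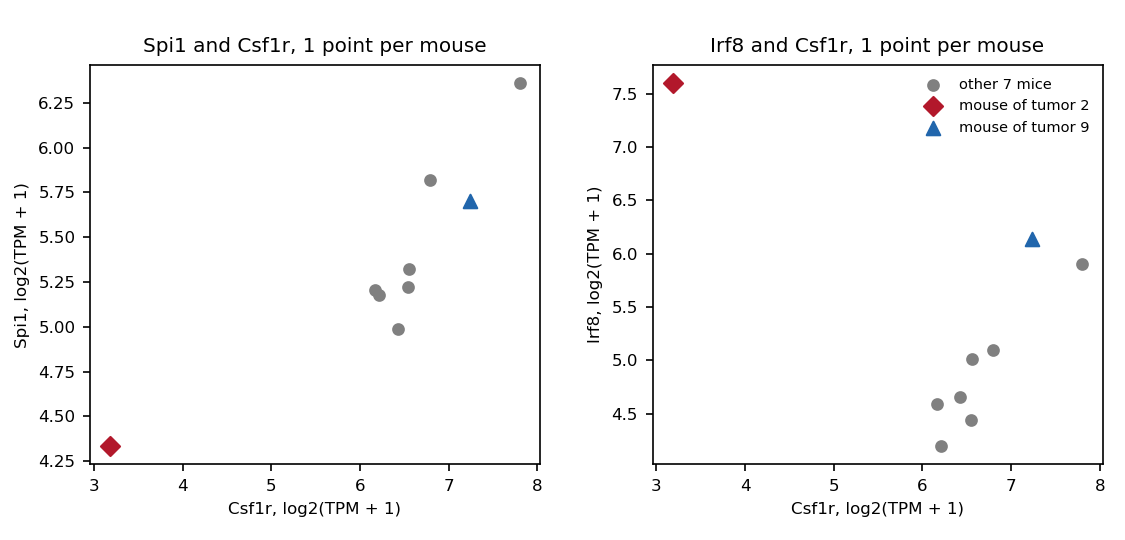
Spi1 (left) and Irf8 (right) on the y axis against Csf1r on the x axis, all as log2(TPM + 1), 1 point per mouse after averaging its tumors. The 7 grey mice rise from left to right (r = 0.927 and 0.925), tumor 9 lies near them, and tumor 2 lies far to the left, with low Spi1 and the highest Irf8.

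In tumor 2 Irf8 was not accompanied by the macrophage marker: the ratio of Irf8 to Csf1r was 23.8 in tumor 2, 0.463 in tumor 9 and between 0.207 and 0.384 in the others. For Spi1 the ratio was 2.36 in tumor 2, 0.340 in tumor 9 and between 0.340 and 0.507 in the others.

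By their textbook stages, then, the genes high in tumor 2 included members of the precursor stages (the surrogate light chain, Il7r, Dntt and Lef1), 2 of the 13 other precursor genes (Myb and Enpep) and pan-B genes (Pax5, Cd79a and Cd79b), while Fcer2a was listed at 0 and Ms4a1, Cr2 and the light chain Igkc were at small ratios to Cd79a or Ighm. No one stage held every gene: Rag1, Rag2, Kit and Il2ra were near 0, and Ly6d and Erg were lowest of the 12. The ranks of Kit, Ly6d and Erg are set against tumors that hold other cells, whose part was not tested. From the mature and plasma cell lists, Cd22, Tnfrsf13b, Tnfrsf13c, Ighd, Siglecg, Mzb1, Slamf7 and Derl3 were called high in tumor 2. In tumor 9 Igll1, Vpreb1 and Vpreb2 were at or near 0 and Vpreb3 was at 2.12 TPM, and the pan-B chain Cd79a with Ms4a1, Fcer2a, Cxcr5 and Ighd, which mature B cells carry, and Cr2, which follicular dendritic cells carry too, were above all tumors other than tumor 2. The secretory and switched-isotype transcripts Jchain, Igha and Ighg2b were also highest of the 12 in tumor 9, as was the plasma cell member Tnfrsf17 at 0.754 TPM, while Ighg1, Xbp1 and the plasma cell members Prdm1 and Sdc1 were not.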

How the data were processed

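The authors trimmed adapters with fastq-mcf, aligned paired-end reads of stranded poly(A) libraries to the GRCm38 transcriptome with HISAT2, and used StringTie 2.1.6 to obtain the deposited TPM values, 1 per Ensembl gene and tumor, with no pooling. The strand setting and the division of reads between near-identical genes are not stated in the sources used here. Each column was matched to its tumor by the animal and suffix in its label, and 0 columns were left unmatched. The sum per tumor lay between 999770 and 999909 and the genes above 0 between 21415 and 23443, but no read depth remains, so no count model or interval was used.

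From the TPM values log2(TPM + 1) was computed, and tumors of one mouse were averaged for means, SDs and correlations. Calls used TPM + 1 and a 4-fold limit over genes with 1 TPM or more in at least 1 tumor. Correlations were tested by exact permutation, two-sided, with Benjamini-Hochberg adjustment over 4 relations, and the scripts were tested on simulated data. All 38 members are named, and of the 10 other lists and 4 cell type lists (T cell, macrophage, plasmacytoid dendritic and epithelial) the count called, up to 4 genes with the highest TPM in tumor 2 or 9, and Ighm, Igkc, Ighd, Il7, Tnfsf13b, Tnfsf13 and Cxcl13; other genes of these lists are named where called, where a ratio uses them or where they stood at an extreme or against their list, chosen after their values were seen, and 1 gene first put in the pan-B list was left out of it and is not reported here. The members and lists were chosen with earlier results of these data known. Alternatives were a pseudocount of 0.1, limits of 2-fold and 8-fold, no filter on low values, TPM rescaled without mitochondrial and immunoglobulin genes, tumors as units, the other mice in place of the other tumors, and leaving out each mouse. Coordinates and transcripts came from GENCODE vM21 (GRCm38) and promoters from RefSeq (GRCm38.p6). Python 3.11.15, numpy 2.4.6, pandas 2.3.3, Biopython 1.88 and matplotlib 3.10.9 were used.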

Additional observations from a re-analysis of the deposited data

Results flagged for a closer look

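Within the 9 mice, 22 of the 35 members that reached 1 TPM had 1 mouse whose log2(TPM + 1) lay farther from its neighbor than Dixon's limit for 9 values allows. These are 62.9% of the members, where 22.0% of all 20659 genes were flagged in the same way. Chance alone flags about 1 in 20 genes, the genes are not independent, and the members were chosen with these tumors known.

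The mouse of tumor 2 was the highest in 16 of them. Its log2(TPM + 1) was 11.14 for Igll1, 10.20 for Vpreb1, 7.57 for Vpreb2, 10.31 for Vpreb3, 4.22 for Dntt, 8.43 for Il7r, 5.70 for Lef1 and 6.00 for Pax5. It was 8.88 for Ikzf1, 7.85 for Ikzf3, 8.54 for Pou2af1, 6.57 for Btk, 8.08 for Cd22, 8.16 for Tnfrsf13b, 5.21 for Bach2 and 6.66 for Irf4. The mouse of tumor 9 was the highest in 5, with 2.55 for Blk, 3.67 for Ms4a1, 10.31 for Cr2, 2.63 for Fcer2a and 2.75 for Cxcr5. The mouse of tumor 8 was the highest in Prdm1, with 3.98.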

How the results depend on the processing

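The count of members high in tumor 2 stayed within 1.5 times its value of 21, and none was low there, under all 6 alternatives. In tumor 9 the 4 members high became 1 with an 8-fold limit, 6 with a 2-fold limit and 6 with a pseudocount of 0.1. Against the 10 tumors other than tumor 2 they became 7. The 0 members low in tumor 9 became 1 with a 2-fold limit and 1 against those 10 tumors. Leaving out tumor 2 was chosen after seeing the data. Of the relations, leaving out each mouse in turn gave r between 0.636 and 0.810 for Cd79a with Cd3e, which passed in none, between 0.716 and 0.955 for Spi1 with Csf1r, between 0.734 and 0.952 for Irf8 with Csf1r, and between -0.33 and 0.07 for Sdc1 with Epcam. The relations of Spi1 and Irf8 lost their call without the mouse of tumor 7 (r = 0.951 and 0.926, exact permutation, adjusted p = 0.111 for both) or of tumor 8 (r = 0.716 and 0.734, exact permutation, adjusted p = 0.192 for both), and that of Sdc1 turned to 0.0685 without the mouse of tumor 8. The cause was not tested. No paired analysis was possible because the study holds a single condition with no second group. With no read numbers, values under 1 TPM have unknown counting error.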
